A study of Mus musculus with 2 samples.

Results

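The 10 immediate-early response genes Egr1, Fos, Jun, Junb, Ier2, Ier3, Atf3, Phlda1, Dusp1 and Zfp36 were followed in pooled mouse liver. They were taken by name, as the probes on both arrays whose RefSeq accession belongs to these genes, and each gene had 1 probe. These were 10 of 20283 genes that could be named on the array and 10 of 55681 gene probes. Fos was printed on 10 spots and each of the other genes on 1, which gave 19 spots. The list was selected on log2 ratios of KO over WT seen earlier on these same arrays, so the values below describe the genes and test nothing.

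Immediate-early genes are switched on within minutes of a growth factor, hormone or stress signal, because the factors that drive them are already in the cell. MAP kinases act on serum response factor and its ETS partners at CArG boxes, and protein kinase A acts on CREB-family factors at cAMP response elements. The products include transcription factors and the phosphatases and RNA-binding proteins that end the response, and most of the transcripts are short-lived. In liver they are known to respond to feeding, injury, regeneration and tissue handling.

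The 4 groups were measured once each, fasted CREBH KO, fasted WT, fed CREBH KO and fed WT. CREBH is the product of Creb3l3, a CREB/ATF-family factor anchored in the endoplasmic reticulum membrane and made mainly in liver and intestine. The KO mice are CREBH null on a C57B6J background and the WT mice are of the C57B6J strain, and feeding was either free or withheld for 24 h. Each group was a single pool of liver RNA, and the labels do not give the number, age or sex of the mice in a pool. KO RNA carried Cy5 and WT RNA carried Cy3 on both 2-colour arrays, 1 array for each feeding state, with no dye swap. With 1 pool in each group no spread between mice could be measured and no test was possible, and genotype and dye cannot be told apart. Ratios are therefore called by size alone, at 2-fold or more.

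The pools were recognisable as liver. All 9 hepatocyte markers with a probe, albumin among them, were well above background in all 4 pools. Creb3l3 itself had a log2 signal of 12.95 in fasted KO and 15.03 in fasted WT liver, and of 13.12 in fed KO and 14.00 in fed WT liver. Its log2 ratio of KO over WT was -2.07 fasted and -0.88 fed, and the probe stayed far above background in KO. When log ratios were instead centred on each array's all-spot median, without loess, the fed value was 0.31, but that centring also put the median of all genes at 0.78 fed and 0.57 fasted. The sources used here do not say whether the probe lies in the deleted sequence. The share of gene spots well above background was 45.8% in fasted KO, 45.9% in fasted WT, 42.9% in fed KO and 39.9% in fed WT liver. A log2 normalized signal of 6.04 to 6.11, depending on the pool, was the lowest that any probe well above background reached. Junb, Ier3, Atf3, Zfp36 and Fos lay within 1 log2 unit of that floor in every pool, except Fos in fed WT liver. Egr1 in fed KO liver also lay within 1 unit, at 0.55 above the floor. So did Ier2 in KO liver, at 0.87 fasted and 0.71 fed. Levels are compared below only within a gene, since probes differ in brightness, and the summed signal of a marker list is compared only between pools.

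In fed liver the measured immediate-early genes were lower in KO than in WT, with Egr1, Phlda1 and Jun past 2-fold. In fasted liver none of the 10 reached 2-fold between the genotypes. Of the 3 fed calls, that of Egr1 held under every setting tried. Those of Phlda1 and Jun were lost with centring on all spots, which also leaves out loess. That of Jun was lost as well with centring on the measured spots, again without loess. Between the feeding states, Egr1 was more than 2-fold higher fasted in KO, and Jun was more than 2-fold lower fasted in WT. The values of each gene follow by role.

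Promoter sequences from RefSeq, build GRCm38.p6, were searched for 7 of the 10 genes. Egr1, Ier2 and Phlda1 were not searched, so nothing is said of their motifs. Of the 7, 4 are printed, those of Fos and Jun as the AP-1 genes, of Dusp1 for its whole cAMP response element and of Zfp36 for its CArG box. Each is the 250 bases before the annotated start, 5′ to 3′ on the strand of the gene, and capitals mark matches to the cAMP response element TGACGTCA, its core TGACG, the AP-1-like TGACATCA, the CArG box and the EGR site GCGNGGGCG, on either strand.
Fos, chr12:85473640-85473889, plus strand: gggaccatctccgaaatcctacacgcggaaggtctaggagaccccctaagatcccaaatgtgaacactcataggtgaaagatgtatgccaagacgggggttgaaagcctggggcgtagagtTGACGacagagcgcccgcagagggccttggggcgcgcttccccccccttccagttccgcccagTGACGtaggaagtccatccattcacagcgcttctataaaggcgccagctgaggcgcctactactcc
Jun, chr4:95052223-95052472, minus strand: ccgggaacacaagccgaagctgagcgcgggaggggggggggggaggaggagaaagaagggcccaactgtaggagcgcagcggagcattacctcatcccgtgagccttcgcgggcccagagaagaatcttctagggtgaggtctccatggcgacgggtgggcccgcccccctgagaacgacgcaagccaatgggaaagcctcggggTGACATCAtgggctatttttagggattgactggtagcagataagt
Dusp1, chr17:26508473-26508722, minus strand: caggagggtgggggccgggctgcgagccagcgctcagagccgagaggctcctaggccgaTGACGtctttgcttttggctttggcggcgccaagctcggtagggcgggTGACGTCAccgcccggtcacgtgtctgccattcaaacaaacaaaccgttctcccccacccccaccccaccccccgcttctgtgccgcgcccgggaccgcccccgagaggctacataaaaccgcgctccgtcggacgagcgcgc
Zfp36, chr7:28379229-28379478, minus strand: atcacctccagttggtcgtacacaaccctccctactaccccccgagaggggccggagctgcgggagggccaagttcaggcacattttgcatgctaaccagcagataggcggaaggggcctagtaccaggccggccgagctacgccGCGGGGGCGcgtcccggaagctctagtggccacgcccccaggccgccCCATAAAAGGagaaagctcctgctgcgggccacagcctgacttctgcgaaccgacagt
Fos held the core TGACG at 129 to 125 and at 66 to 62 bases before the start, Jun the AP-1-like site at 45 to 38, Dusp1 the whole element at 143 to 136, which contains 2 overlapping cores, and another core at 191 to 187, and Zfp36 a CArG box at 58 to 49 and an EGR site at 105 to 97. Of those searched but not printed, Junb held the core at 106 to 102 and Atf3 at 7 to 3 bases before the start, and Ier3 held none of these motifs. Among 32851 promoters of the same length, 1.55% held the whole element, 17.8% the core, 2.93% the AP-1-like site, 1.47% the CArG box and 4.7% the EGR site. Whether these motifs go with the KO over WT ratios was not tested. A match describes the letters alone.

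FOS and JUN pair to form AP-1, a dimeric transcription factor. FOS cannot pair with itself and needs a JUN partner. Fos had a log2 signal of 6.36 in fasted KO and 6.37 in fasted WT liver, the means of 7 spots. In the fed state it was 5.98 in KO liver, where no spot was well above background, and 7.22 in WT liver, over 8 spots. Fed WT thus stood apart from the other 3 pools, and fed KO was at the floor. Fed KO can only be bounded, and Fos was at least 2.19-fold lower there than in fed WT liver. The fasted log2 ratio was -0.01. Between the feeding states Fos was at least 1.21-fold higher fasted in KO liver, again a bound, and its log2 change in WT liver was -0.85. Before any normalization the median brightness of a Fos spot in fed KO was 76.8 over a local background of 69.2. In fed WT it was 77.6 over 23.4. The raw readings of the 2 dyes were thus nearly equal, over a Cy5 background that was the higher one.

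Because Fos was printed 10 times, it was the only one of these genes with a spread between spots. In fed liver the 8 spots used gave log2 ratios between -1.36 and -1.14 (SD 0.08), but KO was not well above background at any of them, so these describe the readings and only the bound is measured. In fasted liver the 7 spots used lay between -0.11 and 0.12 (SD 0.09). The fed and fasted spots did not overlap. The scanner software had marked the other spots as outliers. Its own log2 ratio for Fos, on signals that are not shrunk by an added offset, was 0.07 ± 0.31 fasted and -4.77 ± 0.57 fed, the fed value resting on a KO reading at background and so giving no measured fold. With all 10 spots kept, a setting added once the spots had been looked at, the mean was 0.02 fasted and -1.30 fed, with 10 of 10 fed spots below 0. These spots share the same RNA pools and the same hybridisation, so their spread is that of the measurement on the slide. Among probes printed 10 times and well above background in both pools, the median SD between spots of a log2 ratio was 0.08 fasted and 0.09 fed. These were 258 probes fasted and 235 fed, and Fos was not among the fed ones.

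**Figure D1:**
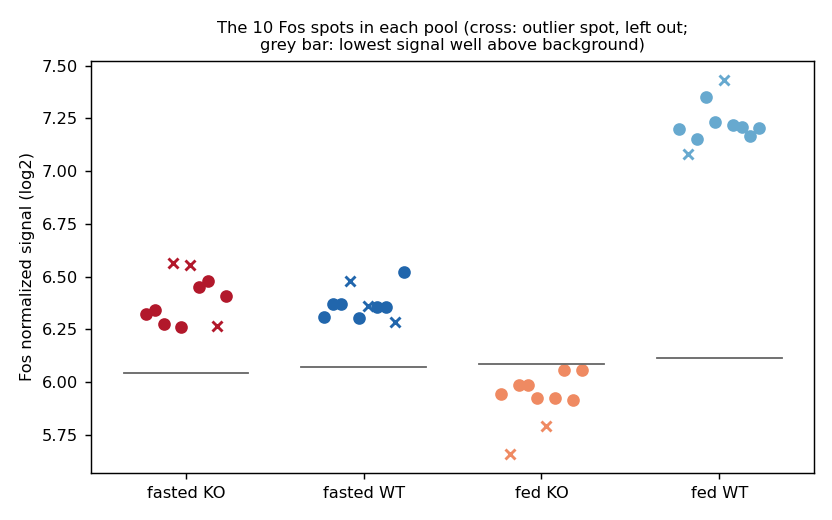
Log2 normalized signal (vertical axis) of the 10 Fos spots in the fasted KO, fasted WT, fed KO and fed WT pools (horizontal axis). Filled points are spots used, crosses are spots marked as outliers and left out, and grey bars are each pool's floor. All fed KO spots used lie below the floor of 6.09, and the fed WT spots used lie between 7.15 and 7.35.

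Jun, which encodes the partner that can also pair with itself, was bright enough to be read in every pool. Its log2 signal was 10.46 in fasted KO, 9.83 in fasted WT, 9.95 in fed KO and 11.05 in fed WT liver. Fed WT was again the highest, but fasted WT was here the lowest. The KO over WT ratio changed sign with the feeding state, being 1.55-fold higher fasted (log2 0.63) and 2.14-fold lower fed (log2 -1.10). The fed ratio fell short of 2-fold at -0.82 with centring on the measured spots and at -0.11 with centring on all spots. Centring on all spots put the fasted ratio at 1.35. Read within genotype, fasting moved Jun by 0.51 on the log2 scale in KO and by -1.22 in WT liver. The fasted minus fed log2 ratio was 1.73.

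Junb, whose product often opposes JUN within AP-1, was dim. It had a log2 signal of 6.43 in fasted KO and 6.62 in fasted WT liver. In the fed state it was 6.18 in KO, not well above background, and 6.45 in WT. The fasted log2 ratio was -0.19. The fed ratio was a bound, at least 1.21-fold lower in KO. The scanner software's log2 ratio was -0.58 ± 0.27 fasted and -1.28 ± 0.45 fed, with the fed KO reading at background.

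Atf3 encodes a stress-induced repressor of the ATF/CREB family that can also pair with JUN. Its log2 signal was 6.72 in fasted KO, 6.52 in fasted WT, 6.37 in fed KO and 6.78 in fed WT liver. The fed KO pool was the lowest and the fed WT pool the highest. The log2 KO over WT ratio was 0.20 fasted and -0.41 fed. With an offset of 10 in place of 50 in the background correction the fed ratio was -0.75. The scanner software's own log2 ratio for Atf3, with its own error estimate, was 0.29 ± 0.25 fasted and -1.27 ± 0.33 fed, so the fed value passes 2-fold on that scale.

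Egr1 encodes a zinc-finger transcription factor and is a classical early target of the MAP kinase and serum response factor route. Its log2 signal was 8.03 in fasted KO, 8.24 in fasted WT, 6.63 in fed KO and 9.09 in fed WT liver. Fed KO was the low pool and fed WT the high one, with both fasted pools between them. The fasted log2 ratio was -0.21. The fed log2 ratio was -2.46, or 5.49-fold lower in KO. In raw brightness the Egr1 spot read 430 over a background of 68 in fasted KO and 223 over 23 in fasted WT liver. It read 126 over 70 in fed KO and 293 over 24 in fed WT liver. The fed KO reading stood closest to its background. Fasting moved Egr1 in opposite directions, 2.64-fold higher in KO (log2 1.40) and 1.80-fold lower in WT (log2 -0.85). The fasted minus fed log2 ratio was 2.25, or 4.75-fold. Every alternative processing kept the fed Egr1 ratio past 2-fold, between -3.62 and -1.83.

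**Figure D2:**
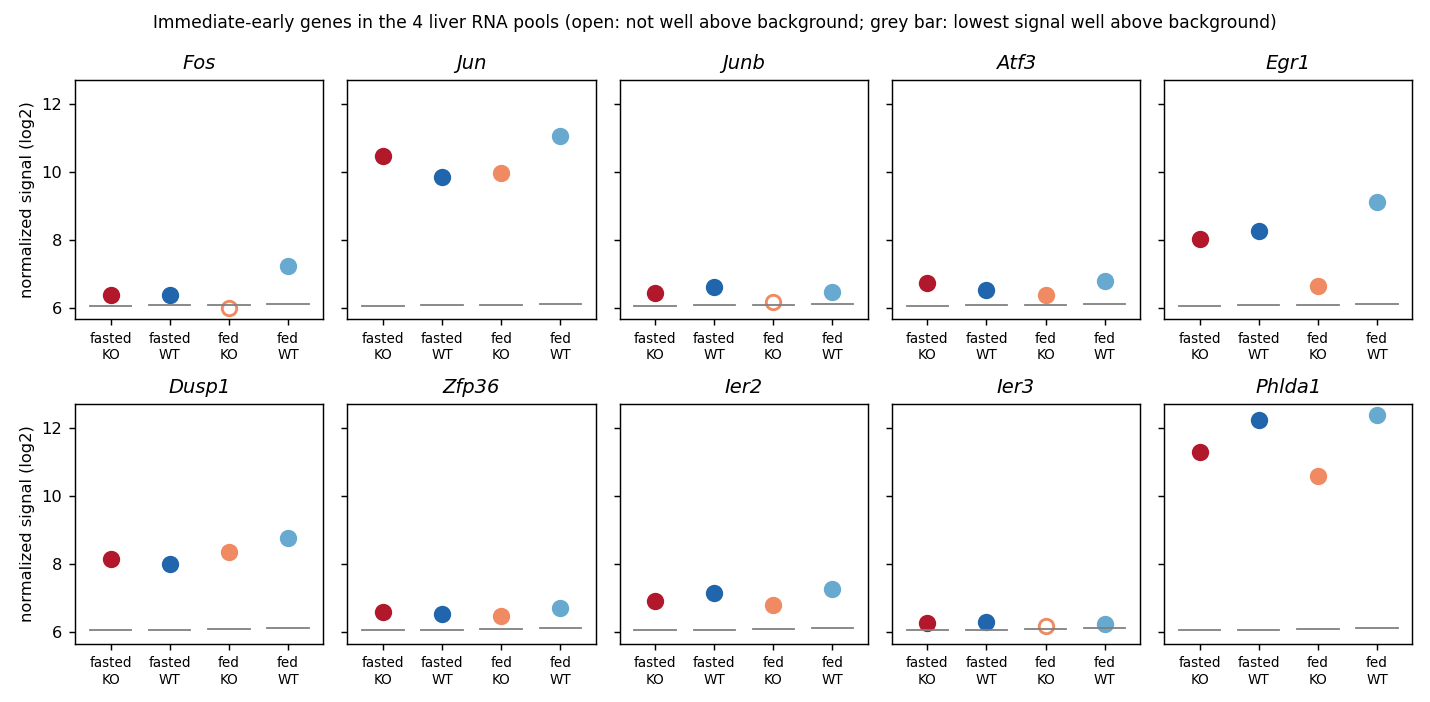
Log2 normalized signal (vertical axis) of each of the 10 genes in the fasted KO, fasted WT, fed KO and fed WT pools (horizontal axis), with open points where the probe was not well above background and grey bars at the floor of each pool, the lowest signal well above background. Levels are to be compared within a panel only. Fed KO is below fed WT in every panel, by 2.46 for Egr1, and is not well above background for Fos, Junb and Ier3.

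Dusp1 and Zfp36 encode brakes on the response. DUSP1 is a nuclear phosphatase that inactivates MAP kinases, and ZFP36 (tristetraprolin) binds AU-rich elements and speeds the decay of short-lived mRNAs. Dusp1 had a log2 signal of 8.14 in fasted KO, 7.99 in fasted WT, 8.34 in fed KO and 8.76 in fed WT liver. Its log2 KO over WT ratio was 0.15 fasted and -0.43 fed. Both Dusp1 fasted pools were below both fed pools, with a log2 change on fasting of -0.20 in KO and -0.78 in WT. Zfp36 spanned less, with 6.60 in fasted KO, 6.53 in fasted WT, 6.47 in fed KO and 6.71 in fed WT liver. Its log2 ratio was 0.07 fasted and -0.24 fed. As reported, both brakes were nearer to equal between the genotypes fed than Egr1, Phlda1 or Jun. That was not particular to the brakes, since Atf3 at -0.41 and Ier2 at -0.46 fed were close to Dusp1. The order also depended on the processing. With centring on all spots the fed log2 ratio was 0.35 for Dusp1 and -0.11 for Jun. The scanner software's log2 ratio for Zfp36, a dim probe, was 0.28 ± 0.27 fasted and -0.61 ± 0.34 fed. For Egr1 it was -0.25 ± 0.21 fasted.

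Ier2, Ier3 and Phlda1 encode proteins that are not classical transcription factors. Ier2, a small nuclear protein, had a log2 signal of 6.92 in fasted KO, 7.13 in fasted WT, 6.80 in fed KO and 7.26 in fed WT liver. It was lower in KO in both feeding states, with a log2 ratio of -0.22 fasted and -0.46 fed. Ier3, a regulator of cell survival, was near the floor in all pools. Its log2 signal was 6.27 in fasted KO and 6.28 in fasted WT liver, and 6.17 in fed KO, not well above background, and 6.24 in fed WT liver. Its fasted log2 ratio was -0.02 and its fed bound was at least 1.04-fold lower, which is within the spread between spots seen for Fos.

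Phlda1 encodes a pleckstrin-homology-like protein induced by growth factors. Its log2 signal was 11.30 in fasted KO, 12.24 in fasted WT, 10.58 in fed KO and 12.38 in fed WT liver. Both KO pools lay below both WT pools. KO was 1.91-fold lower fasted (log2 -0.93) and 3.49-fold lower fed (log2 -1.80). Fasting moved it by 0.72 on the log2 scale in KO and by -0.14 in WT liver. Phlda1 was far above background in each pool. The scanner software's log2 ratio was -0.96 ± 0.22 fasted and -1.87 ± 0.27 fed. With centring on all spots it was -0.12 fasted and -0.75 fed, short of 2-fold, where the median gene stood at 0.57 fasted and 0.78 fed.

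**Figure D3:**
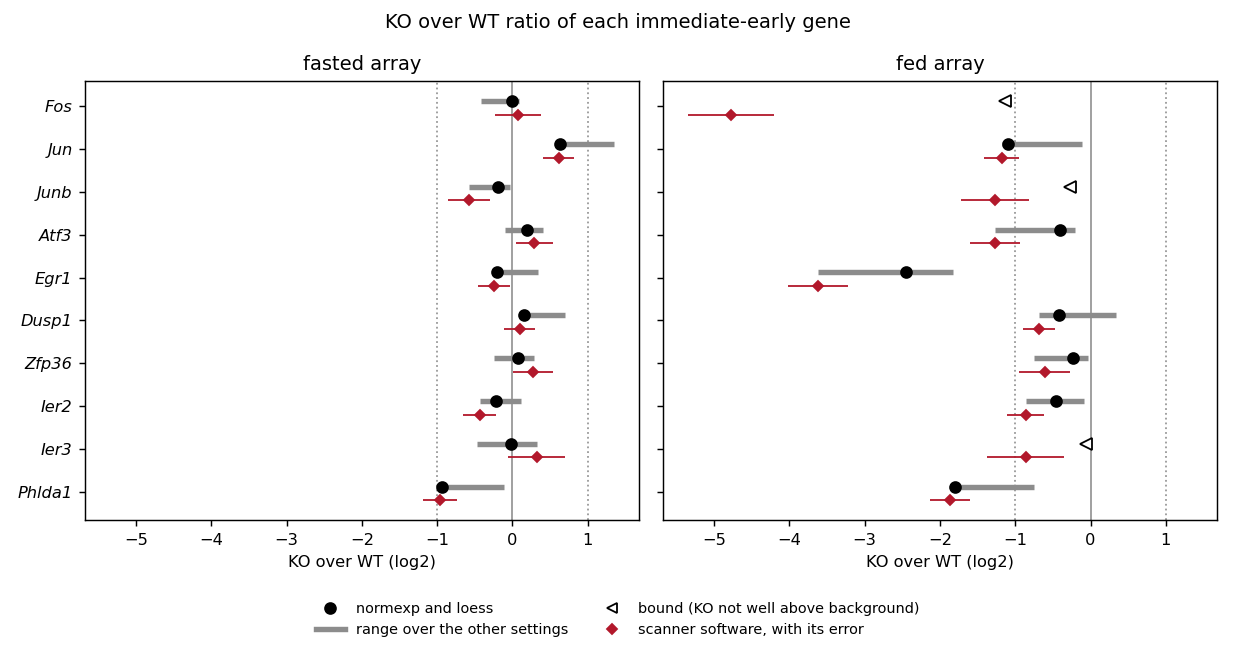
Log2 ratio of KO over WT (horizontal axis) for each of the 10 genes (vertical axis) on the fasted and the fed array. Black points are the values reported, grey bars their range over the other settings, red diamonds the scanner software's ratio with its own error, open triangles upper bounds where fed KO was not well above background, and dotted lines 2-fold. The fed points of Egr1, Phlda1 and Jun lie at -2.46, -1.80 and -1.10, and no fasted point reaches 1 in either direction.

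Set side by side, 10 of the 10 genes were measured in both fasted pools and 7 in both fed pools, the others being Fos, Junb and Ier3. Of the 7, 3 were at least 2-fold lower in fed KO liver, against 0.396% of the 11377 genes measured there. All 7 were below 0, against 46.9% of all genes, and their median log2 ratio was -0.46 beside 0.01 for all genes. In fasted liver 0 of 10 passed 2-fold, against 0.432% of 12262 genes lower and 0.359% higher. There 6 were below 0 and 4 above, against 47.3% of all genes below 0, with a median of -0.01. Counted from the lowest fed ratio, Egr1 held place 6, Phlda1 10, Jun 39, Ier2 243, Dusp1 297, Atf3 328 and Zfp36 1059 of 11377. Since the list was chosen with these ratios in view, the counts are given beside those of all genes and nothing is read from them. With centring on all spots the fed log2 ratio was -1.83 for Egr1 and 0.35 for Dusp1, and all 7 genes were still below the 0.78 of the median gene.

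**Figure D4:**
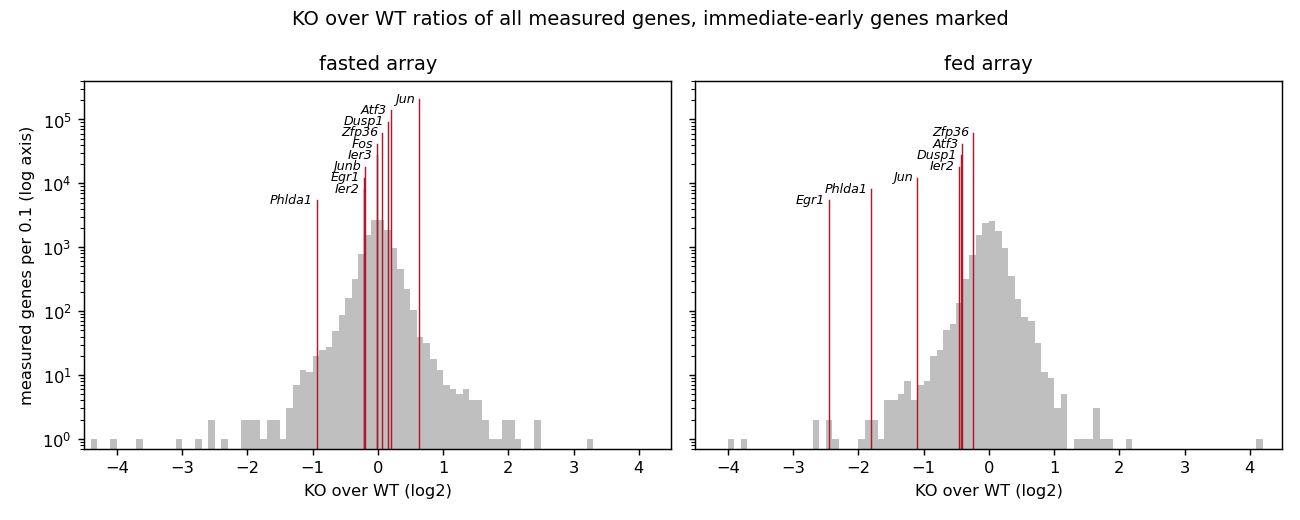
Number of measured genes per 0.1 of the log2 ratio of KO over WT (vertical axis, log scale; ratio on the horizontal axis) on the fasted and the fed array. Red lines mark the measured immediate-early genes and their heights carry no value. On the fed array the 7 marked genes lie on the lower side, with Egr1 at -2.46, and on the fasted array the 10 lie on both sides of 0.

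The same signals read along fasting gave 1 gene of 7 at least 2-fold higher in KO, Egr1, against 2.42% of 11786 genes. In WT 1 gene of 10 was at least 2-fold lower, Jun, against 2.05% of 11442. The median log2 change of the measured genes was 0.34 in KO, where 6 of 7 were above 0 (50.2% of all genes), and -0.22 in WT, where 8 of 10 were below 0 (50.6% of all genes). For 7 genes the fasted log2 ratio could be set against the fed one. All 7 differences were above 0, with a median of 0.60, and 48.8% of 11291 genes were above 0. Egr1 and Jun passed 2-fold, against 0.771% of all genes. These comparisons re-use the same 4 pools and are 1 pattern seen from several sides, and each fasting value also sets 1 array against the other. Without normalization between arrays the median gene stood at 0.45 in KO and 0.46 in WT, and the Jun change in WT was -0.62. The fasted minus fed values of Egr1 and Jun stayed at 2.25 and 1.73.

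**Figure D5:**
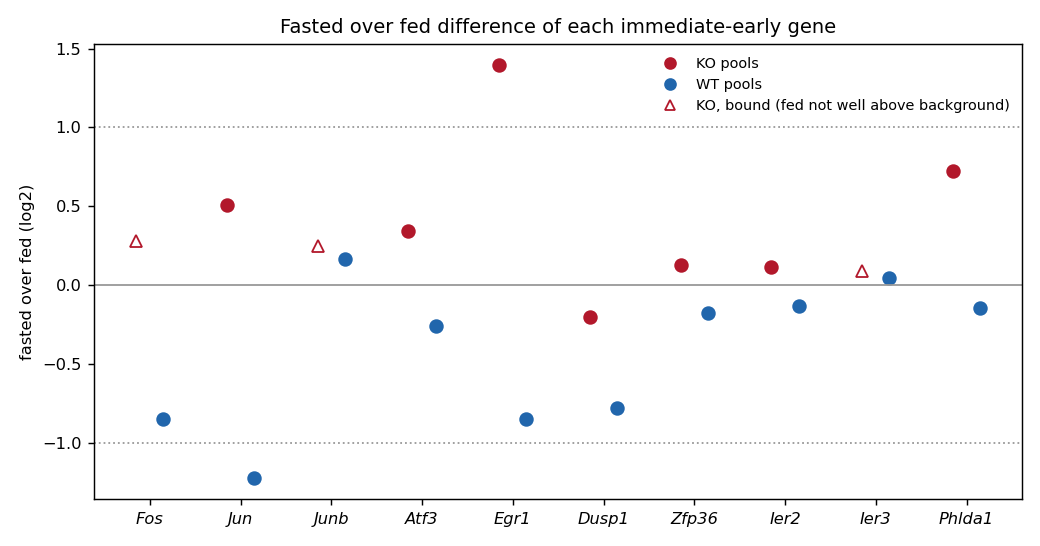
Log2 difference of fasted over fed signal (vertical axis) for each of the 10 genes (horizontal axis), with red points for the KO pools, blue points for the WT pools, open triangles for lower bounds in KO and dotted lines at 2-fold. The KO value is above the WT value for each gene measured in both, and for Egr1 they are 1.40 in KO and -0.85 in WT.

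The wider class of immediate-early genes and the cascade upstream of it were read from lists of related genes. Of 21 other immediate-early transcription factors, 14 were measured in fed liver, and their median log2 ratio was -0.04 with 8 below 0. The nuclear receptor gene Nr4a1 was the only 1 past 2-fold, at -0.11 fasted and -1.21 fed, and its fed value was -0.47 with centring on all spots. Under that centring the median of these 14 genes was 0.64, beside 0.78 for all genes. Csrnp1 was at -0.62 fasted and -0.69 fed. Of 31 other immediate-early effectors, 24 were measured in fed liver, with a median of -0.05. None of them passed 2-fold, against 0.554% of all genes measured fed. The antiproliferative gene Btg2 was the lowest of them fed, at -0.81, and was at -0.54 fasted, where Plk3 at -0.58 and Tob1 at -0.55 were lower. Of 18 relatives of Dusp1 and Zfp36, 10 were measured in fed liver and none passed 2-fold, with Zfp36l1 at 0.03 fasted and -0.39 fed. The MAP kinase cascade and its SRF, ETS and CREB regulators gave 31 measured genes in fed liver with a median of 0.02 and none past 2-fold. The epidermal growth factor receptor gene Egfr was highest there, at 0.96. In fasted liver 16 of the other transcription factors, 28 of the effectors, 11 of the relatives and 35 of the cascade genes were measured. None passed 2-fold there, against 0.791% of all genes. With shares this small over all genes, nothing is read from the counts of these lists.

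Genes of other stress and hormone programmes were on both sides of 0. Among 12 measured ATF4-response genes in fed liver 1 passed 2-fold, asparagine synthetase (Asns), which was higher in KO at 3.30 fasted and 2.19 fed. Of the 11 measured in fasted liver, Atf5 at -1.27 and the glutathione-degrading enzyme gene Chac1 at -1.06 also passed 2-fold. Among 13 glucocorticoid targets, the metallothionein gene Mt2 was at -1.67 fasted and -2.67 fed. Mt1 at -1.35 and Zbtb16 at 1.35 passed 2-fold fed, and Pck1, for the gluconeogenic enzyme PEPCK, did so fasted at -1.13. Of the 13, 12 were below 0 fasted (median -0.26), against 47.3% of all genes, and 6 fed, but 7 of 13 fasted with centring on the measured spots. Of 9 heat shock genes, 8 were above 0 fasted and 7 fed, beside 52.7% of all genes fasted and 53.1% fed. None of the 9 passed 2-fold, which 0.791% of all genes did fasted and 0.554% fed.

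Markers of liver cell types lay on both sides of 0 in the same fed comparison. Of all measured genes, 46.9% were below 0 fed and 47.3% fasted, and 53.1% were above 0 fed and 52.7% fasted. All 11 Kupffer cell and macrophage markers with a probe were below 0 in fed KO over WT, from -0.91 to -0.16, with a median of -0.39. In fasted liver 5 of the 11 were below 0, near the share of all genes, and the median was 0.13. With centring on all spots 2 of the 11 were below 0 fed, and 10 of the 11 were below the median of all genes. Their summed signal was 19275 in fasted KO, 18471.5 in fasted WT, 13958 in fed KO and 18949 in fed WT liver. That sum was lowest in fed KO. Endothelial markers had a fed median of -0.10, with 9 of 10 below 0, and with centring on all spots 0 of 10 were below 0 and 7 of 10 below the median gene. Stellate cell markers were on the other side, with 9 of 10 above 0 fasted (median 0.14) and 8 of 9 fed (median 0.16). Hepatocyte markers had 5 of 9 below 0 fasted (median -0.02) and 6 of 9 fed (median -0.19), beside 47.3% and 46.9% of all genes. With centring on the measured spots, 6 of 10 stellate markers were above 0 fasted and 5 of 9 fed, and 2 of 9 hepatocyte markers were below 0 fasted and 0 of 9 fed. Of the neutrophil markers measured, 6 fasted and 5 fed, S100a8 was at 0.46 fasted and -0.47 fed, and S100a9 at -0.01 fasted and -0.61 fed. Camp, also a neutrophil gene, was at 0.15 fasted and 0.30 fed, and Mpo, Cxcr2 and Ngp were not well above background in any pool. Of the lymphocyte markers measured, 4 of 6 were above 0 fasted (median 0.10) and 2 of 5 fed (median -0.21). Cd4 was at -0.63 fasted and -0.27 fed, and Cd79b at -0.44 fasted and -0.28 fed. On the other side, Cd3e was at 0.19 fasted and 0.00 fed, and Nkg7 at 0.10 fasted and 0.21 fed. In whole liver fewer cells of a type and less RNA per cell cannot be told apart, and the part of these cells in the immediate-early values was not tested.

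The genes whose 4 values followed each member most closely were sought among 898 genes that spanned at least 1 log2 unit. Likeness was the Euclidean distance between log2 signals over the 4 pools, each gene centred on its own mean. For Egr1 the nearest were Cish at 0.37, which encodes a cytokine-induced SOCS-family inhibitor, Raet1e at 0.39 and Phlda1 at 0.69. For Jun they were Gbp4 at 0.19, Sucnr1 at 0.21 and H2-DMb1 at 0.22. For Phlda1 they were Mt1 at 0.38, Raet1e at 0.46 and Gadd45g at 0.47. With 4 points many genes share a shape, so this is a description of the 4 pools.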

How the data were processed

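Arrays were read with Agilent Feature Extraction 10.10.1.1 on a grid for mouse build mm9, per the file headers. Intensity of spot and background was deposited as pixel medians. The deposited log10 ratio comes with the scanner's error, p-value and flags for spots above background, saturated or outlying. A further deposited table of log2 ratios differs from the scanner's by at most 0.005. Means over pixels were planned, but medians are what the files carry.

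Intensities were background-corrected with normexp (offset 50, which shrinks dim ratios), then loess within arrays and Aquantile between arrays in limma 3.58.1 under R 4.3.3. Control and outlier spots were left out. Ratios run KO (Cy5) over WT (Cy3). A gene counted as measured if at least 50% of its spots were well above background in both pools. Otherwise a bound uses the pool's floor, the lowest signal of a probe well above background, or the dim probe's own signal where that is higher. For a gene with several probes the brightest was used. No test is possible between single pools, and 2-fold was the size rule. The genes named are the 10 members, Creb3l3, some members of the lists, and the 3 nearest genes of Egr1, Jun and Phlda1. Not every extreme member of a list is named. Members and lists were chosen with earlier results of these data known. The code was tested on simulated ratios. RefSeq (GRCm38.p6) named 26762 of 55681 probes.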

Additional observations from a re-analysis of the deposited data

Results flagged for a closer look

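The effect of fasting on Egr1 ran in opposite directions in the genotypes, 1.40 on the log2 scale in KO and -0.85 in WT liver, a gap of 2.25. The effect of genotype on Jun ran in opposite directions in the feeding states, a log2 KO over WT ratio of 0.63 fasted and -1.10 fed, a gap of 1.73. Fasting also moved Jun in opposite directions, 0.51 in KO and -1.22 in WT liver, which is the same gap of 1.73 read the other way. With 1 pool in each group none of these differences was tested.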

How the results depend on the processing

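Values were recomputed under one changed choice at a time, except that scanner-processed signals and the authors' value table replace background correction and normalization together, and no called value changed sign. Of the single-gene values, 67 of 78 kept their sign in KO over WT fasted and 55 of 56 fed, the exception being Dusp1 at 0.35 with centring on all spots. In fasting 59 of 63 kept it in KO and 78 of 87 in WT, and 70 of 70 kept it in the fasted minus fed difference. The Fos bound in fed KO over WT ran on the log2 scale from -3.15 with scanner-processed signals to -1.03 with centring on all spots. The cause of the shifts was not tested.

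For all genes at least 2-fold apart in KO over WT fasted, the count was 97 (44 higher, 53 lower) as reported. It was 193 with scanner-processed signals, 195 in the authors' value table, 957 (941 higher, 16 lower) with centring on all spots and 146 (107 higher, 39 lower) with centring on measured spots. For KO over WT fed it was 63 (18 higher, 45 lower) as reported. It was 174 with scanner-processed signals, 175 in the authors' value table, 97 with an offset of 10, 3122 (3113 higher, 9 lower) with centring on all spots and 153 (112 higher, 41 lower) with centring on measured spots. For fasting in KO it was 537 (285 higher, 252 lower) as reported, 1940 (1742 higher, 198 lower) with scanner-processed signals and 1244 (1164 higher, 80 lower) without normalization between arrays, and centring on all spots split it into 256 higher and 375 lower. For fasting in WT it was 495 (261 higher, 234 lower) as reported, 1578 (1416 higher, 162 lower) with scanner-processed signals and 1152 (1081 higher, 71 lower) without normalization between arrays, and centring on all spots split it into 281 higher and 161 lower. For the fasted minus fed difference it was 155 (87 higher, 68 lower) as reported, 341 with scanner-processed signals and 343 in the authors' value table, and centring on all spots split it into 66 higher and 125 lower.

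With centring on all spots 1 immediate-early gene was past 2-fold fasted and 1 fed. In fasting 3 were past it in KO, both with scanner-processed signals and without normalization between arrays. In WT 3 were past it with an offset of 10, 2 with channels at equal medians and 0 without normalization between arrays.

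The median of the measured immediate-early genes in KO over WT fasted was 0.0827 with scanner-processed signals and 0.0807 in the authors' value table, 0.18 with centring on all spots, -0.31 with centring on measured spots and 0.0685 for genes above background in all 4 pools. Fed it was -1.18 with scanner-processed signals and in the authors' value table, -0.75 with an offset of 10, -0.11 with centring on all spots and -0.82 with centring on measured spots. In fasting it was 0.998 in KO and -0.31 in WT with scanner-processed signals, and 0.52 and -0.45 with an offset of 10. It was 0.45 and -0.32 with centring on measured spots, and 0.54 and -0.0299 without normalization between arrays. With channels at equal medians it was 0.0379 and -0.54. For the fasted minus fed difference it was 0.90 with scanner-processed signals and with an offset of 10, 0.91 in the authors' value table and 0.82 with centring on measured spots. With scanner-processed signals the median of all genes in fasting was 0.48 in KO and 0.47 in WT.

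No paired analysis was possible because each group was 1 pool measured once and no result comes from a test. Signal over background limits Fos, Junb and Ier3 in fed KO liver to bounds.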

Other observations

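Among other early-response genes the fasting values were large for a few. The connective tissue growth factor gene Ccn2 was higher fasted in both genotypes, at 2.26 on the log2 scale in KO and 1.69 in WT, and the circadian repressor gene Bhlhe40 was lower in both, at -1.59 in KO and -1.64 in WT. Myc was at 1.12 in KO and 0.67 in WT, Klf2 at 1.08 in KO and 0.75 in WT, and Nr4a1 at -0.05 in KO and -1.16 in WT. Tob1 was at -1.32 in KO and -0.91 in WT, Tob2 at -1.28 in KO and -0.80 in WT, and Pim3 at 0.40 in KO and 1.08 in WT. Each of these is a value of single pools.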
